A study of Rattus norvegicus with 72 samples.

Results

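The early response of rat liver to partial hepatectomy (PHx) was compared between 6 h and 1 h after surgery. PHx takes out several lobes of the liver, and the lobes left behind grow until the lost mass is replaced. The comparison uses 48 of the 72 Affymetrix Rat Gene 1.0 ST arrays of the study, from 24 of its 36 rats. A cohort of 12 rats was followed to 1 h and another cohort of 12 rats to 6 h, and in each cohort 4 rats had been fed chronically with ethanol (EtOH), 4 with a high fat diet (HF) and 4 with a carbohydrate diet pair-fed to the ethanol rats (CHO). Every rat gave a control array, from liver taken at the moment of PHx, and an array of what was left of the same liver 1 or 6 h later. The response of a gene in a rat is the log2 value of the remnant minus that of its own control, so a response of 1 is a doubling. All 24 rats had surgery, no sham-operated rats are among the samples, and a response therefore holds the surgery, the anaesthesia and the passing of the hours together. The sources used here do not give strain, sex, age, the length of feeding or the clock time of surgery. The cohorts are different animals, so a change from 1 h to 6 h is a difference between groups of rats and not a course followed in the same rat. The titles and the source names of the samples give the HF and CHO names the other way round. Titles were used here, and neither the mean over the diets nor the contrast of EtOH with the mean of HF and CHO depends on that choice.

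Hepatocytes are normally at rest and re-enter the cell cycle after PHx. In the classical account, immediate early transcription factors such as Fos, Jun, Myc and Egr1 come first, without need for new protein, followed by cytokine signals through the IL-6 receptor family and STAT3, which also drive the acute phase proteins of the liver. Synthesis of ribosomes and translation machinery then prepares growth, while DNA synthesis in rat hepatocytes comes later than any time examined here.

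The arrays were alike in scale, with median log2 values between 4.59 and 4.72. The 12 responses at 1 h correlated with the median response of the other rats of the cohort at r = 0.52 to 0.64 across genes, and those at 6 h at r = 0.73 to 0.89 (genes are not independent replicates). The lowest value at 6 h belonged to HF rat 2, whose array is 1 of 5 that the submitters marked as outliers among these rats (HF rat 3 and CHO rat 3 at 1 h, HF rats 1 and 2 and CHO rat 1 at 6 h). That rat held the highest or lowest response of its cohort in 33.5% of the genes considered by name, against at most 20.7% for any other rat at 6 h, and for several genes below whose extreme value is that of this rat the value without it is given. Each scan day of the arrays held rats of 1 cohort only, so the scan day and the cohort cannot be told apart beyond what cancels between the arrays of the same rat. Markers of hepatocytes were abundant in every array, and their summed level moved by log2 -0.04 to 0.04 at 1 h and by -0.11 to -0.01 at 6 h. In bulk tissue, fewer cells of a type and less RNA per cell cannot be told apart.

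The liver had moved much further from its starting state at 6 h than at 1 h. Response strength, the root mean square of the log2 responses of a rat over 14506 genes, ran from 0.286 to 0.362 with a median of 0.318 at 1 h, and from 0.482 to 0.74 with a median of 0.582 at 6 h. The cohorts did not overlap, and the most affected rat was HF rat 2 of the 6 h cohort. The mean rose from 0.319 ± 0.024 to 0.582 ± 0.068 (SD, n = 12 each), a difference of 0.263 with diet held constant (permutation test of the cohort labels within diet, 2-sided, p = 1e-05, the smallest value that 100000 resamples can give). It was 0.303 ± 0.019 against 0.585 ± 0.041 in EtOH, 0.33 ± 0.023 against 0.567 ± 0.12 in HF and 0.323 ± 0.026 against 0.593 ± 0.029 in CHO rats (SD, n = 4 each; exact permutation test, 2-sided, p = 0.0286 in each diet, the smallest that 4 against 4 rats allow).

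**Figure D1:**
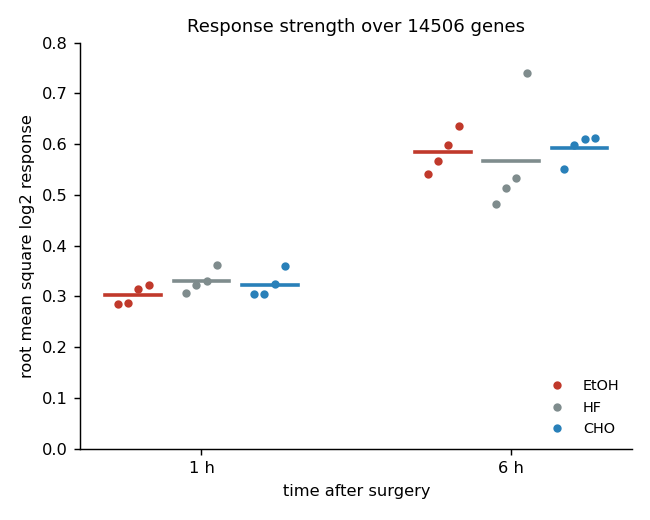
Response strength of each rat (root mean square of its log2 responses over 14506 genes, vertical axis) at 1 h and 6 h after surgery, coloured by diet, with a bar at the mean of each 4 rats. Every rat of the 6 h cohort, at 0.482 or more, lies above every rat of the 1 h cohort, at 0.362 or less.

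Few genes had responded at 1 h and many at 6 h. A gene was said to respond when its mean response over the 3 diets passed an adjusted p of 0.05 in limma (Benjamini-Hochberg over all genes) and was at least 1.5-fold. At 1 h, 221 genes rose (1.52% of those tested) and 59 fell (0.407%), while at 6 h 1129 rose (7.78%) and 1213 fell (8.36%). The response at 6 h differed from that at 1 h, with diet held constant, for 5277 genes (36.4%), of which 2786 (19.2%) were higher and 2491 (17.2%) lower at 6 h. These shares over all genes are the background for the counts of higher and lower genes in every gene list below. In 1248 genes (8.6%) the 12 responses at 6 h did not overlap the 12 at 1 h. The median gene moved by log2 -0.0124 at 1 h and 0.0039 at 6 h.

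Crossing the responses with the difference sorted the genes into classes. A transient gene responded at 1 h, did not respond that way at 6 h, and had a difference back towards 0 that passed the test; there were 70 transient rises and 16 transient falls. A newly changed gene responded at 6 h and not at 1 h, with a difference that passed the test; there were 982 new rises and 1119 new falls. A sustained gene responded in the same direction at both times, which held for 119 rises and 34 falls. Another 22 genes rose at 1 h and fell at 6 h with this fold minimum, and 0 genes did the reverse. With no fold minimum, 93 genes rose and then fell and 190 fell and then rose. In addition, 19 genes at 1 h and 66 at 6 h stayed undecided because the difference did not pass the test. Of the 221 rises at 1 h, 53.8% were also rises at 6 h, where they made up 10.5% of all rises. Of the 59 falls, 57.6% were also falls at 6 h and made up 2.8% of them. The responses at 1 h enter both the call at 1 h and the difference, so the classes are a description built from shared values. A newly changed gene need not have been at rest at 1 h, since 152 of the 982 new rises and 296 of the 1119 new falls had already passed the adjusted p at 1 h in the same direction, below 1.5-fold.

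**Figure D2:**
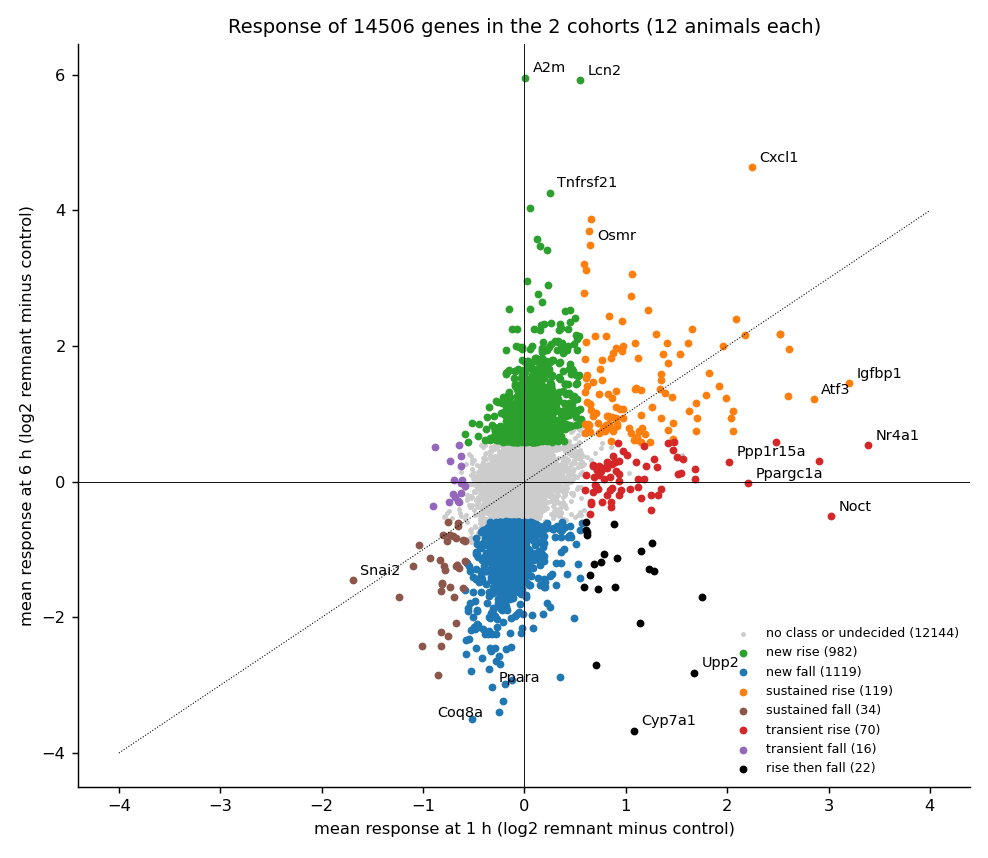
Mean log2 response of 14506 genes at 1 h (horizontal axis) and 6 h (vertical axis), 12 rats each, coloured by class, with the dotted line where both responses are equal. The transient rises lie along the horizontal axis to the right, the 982 new rises and 1119 new falls along the vertical axis, and Cyp7a1 and Upp2 lead the 22 genes that rose and then fell.

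Without the 5 rats that have an array marked as an outlier, 19 rats gave 82 transient rises (65 of them among the 70), 14 transient falls (10 of the 16), 989 new rises (909 shared), 1055 new falls (1021 shared), 104 sustained rises (100 shared), 27 sustained falls (26 shared) and 23 genes that responded in opposite directions (18 shared), of which 20 rose and then fell and 3 did the reverse. The difference between the times was called for 5178 genes in these 19 rats.

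Immediate early regulators and stress genes were among the largest transient rises. Nr4a1, the orphan nuclear receptor NUR77, had 1 h responses of 1.84 to 5.26 with a median of 3.47, and 6 h responses of -0.45 to 1.77 with a median of 0.45, with no overlap between the cohorts. Its mean went from log2 3.39 ± 0.22 (SE), 10.5-fold over control, to 0.54 ± 0.22 (difference -2.86 ± 0.32, adjusted p = 5.97e-08). Control levels of Nr4a1, 3.72, lay under the array medians, where the size of a fold change is uncertain. Ppargc1a, the coactivator PGC-1α of mitochondrial and gluconeogenic genes, ran from 1.87 to 2.86 with a median of 2.14 at 1 h and from -0.92 to 1.28 with a median of -0.02 at 6 h, without overlap. Its mean went from 2.21 ± 0.10 to -0.02 ± 0.10 (adjusted p = 2.11e-12 for the difference), and EtOH rats 1 and 2 held the highest 6 h values. Ppp1r15a, the phosphatase subunit GADD34 that restarts translation after stress, ran from 1.37 to 2.72 at 1 h and from -0.21 to 0.82 at 6 h, again without overlap (mean 2.02 against 0.29, adjusted p = 3.55e-10). Gdf15, a secreted stress cytokine, behaved alike, at 0.71 to 2.03 against -0.58 to 0.56 (mean 1.35 against -0.11, adjusted p = 3.34e-08). Egr1, a zinc finger factor, averaged 2.48 at 1 h and 0.58 at 6 h, and Apold1, an immediate early gene of endothelial cells, 2.91 and 0.31. In both the highest 6 h value, 2.18 and 2.45, was that of HF rat 2, and without it the 6 h means were 0.37 and 0.11. Maff, a small Maf factor, averaged 1.69 and 0.18, and the kinase gene Plk3 1.54 and 0.14. Rell1 and Gstm3, a receptor-like protein and a glutathione transferase, stood at 1.68 and 1.57 at 1 h and at 0.03 and 0.33 at 6 h. Noct, the phosphatase nocturnin, rose to a mean of 3.03 and ran at 6 h from -4.13 in CHO rat 4 to 1.12. Without the outlier rats its 6 h mean was -1.12 and passed as a fall (adjusted p = 0.0259), which puts it with the genes that rose and then fell.

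The immediate early list as a whole moved back only in part. Of its 36 measured members 28 rose at 1 h and 19 at 6 h, 20 were lower and 4 higher at 6 h than at 1 h, 12 were transient and 16 sustained. The list median was 1.10 at 1 h (0.80 to 1.46 over rats) and 0.60 at 6 h (0.18 to 1.11), against medians near 0 over all genes. Fos, the partner of JUN in the AP-1 factor, was transient with a low starting level, at 0.22 to 1.40 against -0.19 to 0.60 (mean 0.77 against 0.21, adjusted p = 0.000737). Jun and Atf3, also AP-1 family members, were sustained but smaller at 6 h, with means of 1.71 and 0.94 for Jun (adjusted p = 0.0037) and 2.86 and 1.22 for Atf3 (adjusted p = 9.12e-06). Btg1, an antiproliferative gene of the same list, went the other way, from 0.41 to 0.99. Among 14 feedback inhibitors of MAP kinase signalling 8 were lower and 1 higher at 6 h. Dusp5, a phosphatase of ERK, was transient (0.73 and 0.13), while Dusp6, another ERK phosphatase, was the new rise of the list (-0.09 and 1.42, adjusted p = 3.28e-06 for the difference).

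Among genes that glucocorticoids induce, more had risen at 1 h than at 6 h. Of 18 measured targets 11 rose at 1 h and 4 at 6 h, and 11 were lower and 2 higher at 6 h, with a list median of 0.81 against 0.04. Per1, a clock gene with a glucocorticoid response, had 1 h values of 0.39 to 1.76 and 6 h values of -1.60 to 1.40 (mean 1.18 against 0.03, adjusted p = 0.00114). Klf9, a Krüppel-like factor, averaged 0.66 and -0.30. Outside the list, Sds, the serine dehydratase of amino acid breakdown, averaged 1.24 and -0.20. For Sds and Per1 the highest 6 h value was that of EtOH rat 1. All EtOH rats stayed above control in Per1 at 6 h, at 0.215 to 1.40, while HF rats ran from -1.60 to 0.97 and CHO rats from -1.58 to 0.85. A dependence on diet was not called for Per1. Insig1, the protein that holds back the sterol sensor SCAP in the endoplasmic reticulum, averaged 1.04 at 1 h and -0.10 at 6 h (adjusted p = 0.00023).

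The promoters of the transient rises were searched for short motifs, since several of these genes are textbook targets of CREB, the factor that cyclic AMP activates. The search took 14 motifs of 6 to 10 letters on both strands, and the motifs described here, first the palindromic cyclic AMP response element TGACGTCA, were picked after their shares were seen. The windows are those of RefSeq on GRCr8, from 250 bases before to 50 after the annotated start, and 51 of the 70 transient rises have one. The element was present in 8 of these 51 (15.7%), in 2 of the 19 windows of genes that rose and then fell (10.5%), in 4.12% of those of sustained rises, in 3.97% of those of new rises and in 1.69% of those of new falls. It was in 3 of the 25 windows of immediate early genes (12%), in 2.46% of those of all tested genes and in 1.91% of all 27457 promoter windows. A match is a stretch of letters and not a shown binding site. The windows of Ppargc1a (chr14:63634058-63634357, plus strand), Ppp1r15a (chr1:105139547-105139846, minus strand) and Maff (chr7:112792537-112792836, plus strand) are printed 5′ to 3′ because all 3 genes are leading transient rises that hold the element, which stands in capitals and begins 181, 66 and 51 bases before the start.
Ppargc1a: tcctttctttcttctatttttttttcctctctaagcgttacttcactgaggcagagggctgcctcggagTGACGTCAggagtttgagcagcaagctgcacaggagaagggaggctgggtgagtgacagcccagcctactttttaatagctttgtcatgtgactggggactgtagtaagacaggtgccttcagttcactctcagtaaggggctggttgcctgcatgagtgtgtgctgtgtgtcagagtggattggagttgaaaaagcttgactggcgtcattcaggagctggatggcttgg
Ppp1r15a: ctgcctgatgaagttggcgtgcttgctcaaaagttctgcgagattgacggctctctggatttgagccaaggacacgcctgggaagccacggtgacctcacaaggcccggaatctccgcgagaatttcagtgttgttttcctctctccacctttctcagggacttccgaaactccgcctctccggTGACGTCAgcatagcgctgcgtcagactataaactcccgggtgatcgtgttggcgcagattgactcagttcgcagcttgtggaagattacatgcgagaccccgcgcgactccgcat
Maff: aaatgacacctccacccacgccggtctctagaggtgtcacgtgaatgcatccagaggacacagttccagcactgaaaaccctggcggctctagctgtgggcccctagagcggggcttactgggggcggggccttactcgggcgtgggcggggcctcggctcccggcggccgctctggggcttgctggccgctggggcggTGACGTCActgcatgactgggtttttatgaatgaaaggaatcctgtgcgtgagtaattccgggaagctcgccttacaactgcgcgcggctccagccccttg
The Maff window also holds the E-box CACGTG, 213 bases before the start and not overlapping the element.

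With the 1.5-fold minimum, transient falls were fewer and smaller than transient rises. With no fold minimum there were 206 transient falls and 143 transient rises. Efna1, the ligand ephrin-A1, ran from -1.87 to -0.10 at 1 h and from -0.99 to 1.52 at 6 h, with overlap (mean -0.73 ± 0.13 against 0.31 ± 0.13 SE, adjusted p = 5.43e-05). The highest 6 h value was again that of HF rat 2. At 6 h Efna1 stood at 0.43 to 1.52 in HF, at -0.12 to 1.27 in CHO and at -0.99 to 0.065 in EtOH rats. The EtOH rats had stood at -1.87 to -0.38 at 1 h, so the return was that of the mean over diets and not clear in EtOH rats. A dependence on diet was not called for this gene. Med4, a subunit of the Mediator complex, averaged -0.90 and -0.36, and Tbx3, a T-box factor of pericentral hepatocytes, -0.70 and 0.03. Smad6, an inhibitor of BMP signalling, averaged -0.63 and 0.38, and without the outlier rats its 1 h value of -0.58 stayed just short of 1.5-fold. Zfp322a, Tmem268 and Cdc42ep3 stood at -0.74, -0.70 and -0.69 at 1 h and at -0.30, -0.18 and -0.22 at 6 h. Without the outlier rats the difference for Tmem268 no longer passed (0.36, adjusted p = 0.0503).

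Some of the genes that were up at both times rose further and some fell back. Of the 119 sustained rises, 38 were larger at 6 h, 19 smaller, and for 62 the difference did not pass the test. Cxcl1, a chemokine that attracts neutrophils, ran from 1.24 to 3.86 at 1 h and from 4.14 to 5.13 at 6 h, so that the cohorts did not overlap. It went from 4.73-fold to 24.8-fold over control (log2 2.24 ± 0.14 and 4.63 ± 0.14 SE, adjusted p = 5.73e-10). Osmr, the oncostatin M receptor of the IL-6 family, ran from 0.01 to 1.10 and then from 2.54 to 4.36 (mean 0.65 against 3.49, adjusted p = 2.96e-14). Socs3, the feedback inhibitor of STAT3, averaged 0.59 and 3.21 (adjusted p = 7.21e-12), and at 1 h it lay just inside the 1.5-fold limit, so that without the outlier rats it counted as a new rise. Of 18 genes of IL-6 family receptors and STAT3 signalling, Osmr and Socs3 among them, 7 were higher and 6 lower at 6 h than at 1 h, with 3 rises at 1 h, 6 at 6 h and list medians of 0.40 and 0.36. Of 28 genes of chemokines, interleukin 1 and NF-κB feedback, with Cxcl1 among them, 10 were higher and 8 lower, 6 were new rises and 2 new falls, with list medians of 0.26 and 0.28. Timp1, an inhibitor of matrix proteases, averaged 0.97 and 2.00, and Slc1a4, a neutral amino acid transporter, 0.84 and 2.44. Il1r1, the IL-1 receptor, shows the other side of the limit, with a mean of 0.52 at 1 h (adjusted p = 2.58e-05, below 1.5-fold) and 2.10 at 6 h, which makes it a new rise.

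For several strong early genes the difference between the times did not pass the test. Il1rn, the IL-1 receptor antagonist, averaged 1.96 and 2.00 (difference 0.04 ± 0.24, adjusted p = 0.936), Enc1, an actin-binding protein, 2.18 and 2.16, and Pvr, a cell adhesion receptor, 2.08 and 2.40. Coq10b, a coenzyme Q binding protein, averaged 2.52 and 2.18 and the matrix protein gene Thbs1 2.53 and 2.18. Gadd45b, a stress kinase activator known from regenerating liver, ran from 1.68 to 3.72 at 1 h and from 0.74 to 4.34 at 6 h, and the highest 6 h value of Gadd45b, Thbs1, Coq10b and Il1rn was that of HF rat 2. Without that rat Gadd45b was smaller at 6 h (1.71, difference -0.90, adjusted p = 0.000462, against -0.65 and 0.0756 with it). Without all outlier rats Thbs1 was smaller too (difference -0.90, adjusted p = 0.041). Tgfb3, a TGF-β ligand, averaged 1.66 and 2.25 (adjusted p = 0.07). Myc, a driver of ribosome synthesis and growth, averaged 1.99 ± 0.22 and 1.24 ± 0.22 (adjusted p = 0.0635), with 6 h values from -0.52 to 1.97. Its difference passed the test without the outlier rats (-1.10, adjusted p = 0.0118) or without HF rat 2 (-0.83, adjusted p = 0.0421). Igfbp1, the insulin-like growth factor binding protein that leads many lists of early regeneration genes, ran from 0.96 to 5.63 at 1 h and from -0.75 to 4.34 at 6 h. Its mean was smaller at 6 h (3.21 against 1.45, adjusted p = 0.00255) and its highest 6 h value was once more that of HF rat 2. Cdkn1a, the cell cycle inhibitor p21, averaged 1.41 and 2.04 (adjusted p = 0.0382), a difference that no longer passed without any single 1 of 11 rats, at 0.57 to 0.63. HF rat 2 held the highest 6 h value of Cdkn1a, 4.19, and without that rat the difference was 0.44 (limma, adjusted p = 0.0498).

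**Figure D3:**
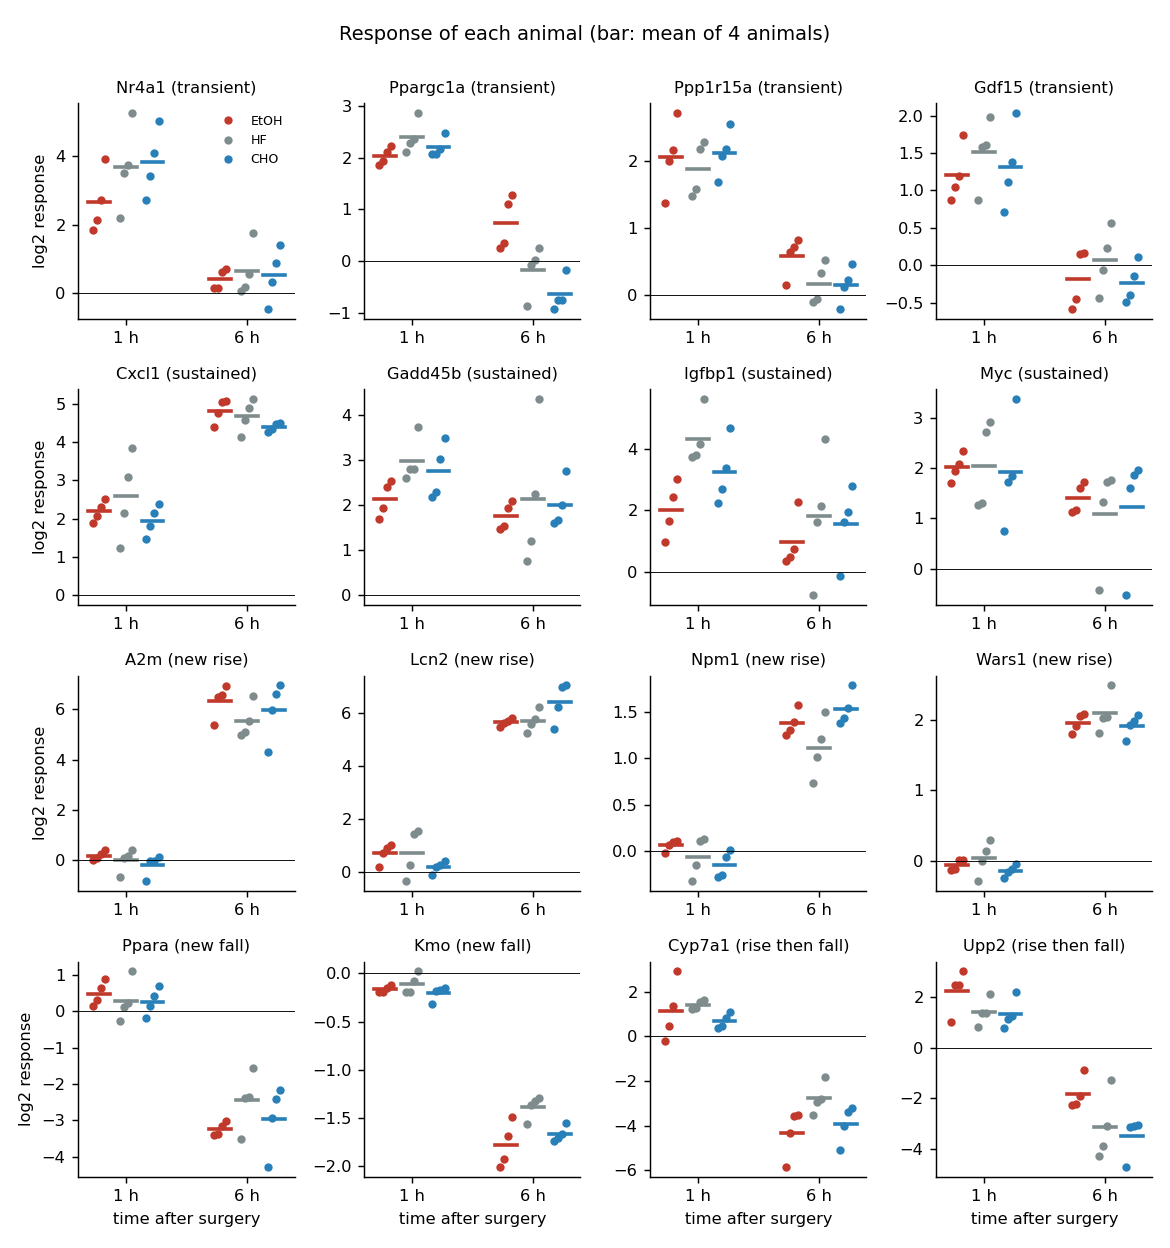
Log2 response of each rat (vertical axis) at 1 h and 6 h for 16 genes, coloured by diet, with a bar at the mean of each 4 rats. Nr4a1, Ppp1r15a and Gdf15 fall back towards 0, Cxcl1 rises further, A2m and Lcn2 stand far above 0 in the 6 h cohort, and Cyp7a1 and Upp2 cross from above to below 0.

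The 34 sustained falls, 16 of them larger at 6 h, included regulators of liver identity and of sugar and fat storage. Snai2, a zinc finger repressor, fell in 12 of 12 rats at both times, at -2.77 to -0.48 and -2.34 to -0.63 (mean -1.69 and -1.45, difference 0.24 ± 0.22, adjusted p = 0.446). Foxa2, a forkhead factor of hepatocyte identity, averaged -1.04 and -0.94. Mid1ip1, an activator of acetyl-CoA carboxylase, averaged -1.10 and -1.24, and Rtp3 and Ift70b -1.24 and -1.70, and -0.93 and -1.12. Ppp1r3b, the subunit that targets protein phosphatase 1 to glycogen, fell further, from -1.01 ± 0.14 to -2.42 ± 0.14 (adjusted p = 1.77e-06).

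A group of 22 genes was above control at 1 h and below it at 6 h (5 genes without the scan day that held 6 of the 12 rats of 1 h), and several of its members are known targets of fasting hormones, bile acids or the FOXO factors. Cyp7a1, which sets the pace of bile acid production from cholesterol, ran from -0.22 to 2.91 at 1 h, up in 11 of 12 rats, and from -5.86 to -1.83 at 6 h, down in 12 of 12. That is 2.12-fold higher and then 12.8-fold lower (log2 1.08 ± 0.22 and -3.67 ± 0.22 SE, adjusted p = 6.08e-12). Upp2, a uridine phosphorylase of liver, ran from 0.77 to 3.02 and then from -4.72 to -0.89 (mean 1.68 against -2.82, adjusted p = 1.29e-11). In neither gene did the cohorts overlap. Foxo3, a forkhead factor that insulin signalling switches off, averaged 0.92 and -1.13, and Bcl2l11, the cell death gene BIM, 1.15 and -1.03. Sesn1, a stress-induced brake on mTORC1, averaged 0.59 and -1.55. Tsc22d3, the glucocorticoid-induced leucine zipper, averaged 0.72 and -1.58, and Dusp1, a MAP kinase phosphatase, 1.23 and -1.28, without overlap. Tsku, a secreted liver protein, Lpin2, a phosphatidate phosphatase, and Herpud1, of endoplasmic reticulum stress, averaged 1.14, 0.90 and 0.65 at 1 h and -2.08, -1.55 and -1.37 at 6 h. Usp2, a deubiquitinase under clock control, averaged 0.68 and -1.21.

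The largest mean responses among the new rises were those of secreted acute phase proteins. A2m, α2-macroglobulin, the main acute phase protein of the rat, ran from -0.81 to 0.42 at 1 h and from 4.31 to 6.96 at 6 h. It was at 1.01-fold of control at 1 h (log2 0.01 ± 0.17 SE, adjusted p = 0.982) and 62.1-fold at 6 h (5.96 ± 0.17, adjusted p = 3.81e-15 for the difference). Lcn2, the iron-scavenging lipocalin, ran from -0.32 to 1.55 and then from 5.25 to 7.03 (mean 0.55 against 5.92, adjusted p = 1.85e-15). Every rat of each diet at 6 h stood far above every rat at 1 h in both genes. Of 33 secreted acute phase proteins 14 rose at 6 h and 4 at 1 h, with 20 higher and 6 lower at 6 h than at 1 h and a list median of 0.40 against 0. Orm1, α1-acid glycoprotein, averaged 0.20 and 2.33, and Kng1, kininogen, -0.06 and 0.82. Fgb, the fibrinogen β chain, averaged -0.02 and 0.44, a difference that passed the test below 1.5-fold. Stat3 itself averaged 0.43 and 2.25 (adjusted p = 1.39e-11). Icam1, an adhesion receptor for leukocytes, averaged 0.17 and 1.00. Sod2, the mitochondrial superoxide dismutase that NF-κB induces, averaged 0.07 and 1.74. Hmox1, haem oxygenase, averaged 0.34 and 2.24, with HF rat 2 highest at 4.60. Of 19 oxidative stress and metallothionein genes, Sod2 and Hmox1 among them, 7 were higher and 6 lower at 6 h than at 1 h. At 6 h 4 of them rose and 4 fell, with list medians of -0.06 at 1 h and -0.20 at 6 h. Gclm and Cat of this list were new falls, Cat at -0.06 and -0.85. Also among the largest new rises were Tnfrsf21, a death receptor (0.25 and 4.26), Tgm1, a transglutaminase (0.05 and 4.04), Gucy2c, the guanylin receptor (0.12 and 3.58), Hcar2, a receptor for β-hydroxybutyrate (0.15 and 3.47), Wfdc21 (-0.15 and 2.55), Stx18, a syntaxin of the endoplasmic reticulum (0.03 and 2.96), and Nceh1, a cholesterol ester hydrolase (0.23 and 2.91). Gucy2c and Hcar2 started from levels of 3.85 and 3.94, under the array medians.

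The machinery that makes ribosomes and protein rose at 6 h. Of 47 ribosome biogenesis genes 46 rose at 6 h against 1 at 1 h, 46 were higher and 0 lower at 6 h than at 1 h, and 45 were new rises, where 19.2% of all genes tested were higher. The list median was 0.15 at 1 h (-0.14 to 0.47 over rats) and 1.30 at 6 h (0.97 to 1.79), so the cohorts did not overlap. Npm1, the nucleolar chaperone nucleophosmin, ran from -0.32 to 0.13 and then from 0.73 to 1.78 (mean -0.04 ± 0.06 against 1.34 ± 0.06 SE, adjusted p = 1.27e-12). Pno1, a factor of small subunit assembly, averaged 0.23 and 1.94, Ebna1bp2, of large subunit assembly, 0.15 and 1.45, and Mrto4, a ribosome maturation factor, 0.05 and 1.28. The aminoacyl-tRNA synthetases, which charge tRNAs, moved likewise, with 17 of 18 higher at 6 h, 0 lower and list medians of 0 and 0.95. Wars1, for tryptophan, ran from -0.28 to 0.30 and then from 1.7 to 2.49 (mean -0.05 against 1.99, adjusted p = 1.85e-15), and its difference was 2.01, 2.05 and 2.05 in EtOH, HF and CHO rats. Yars1, Eprs1 and Vars1 averaged -0.02, 0.11 and 0 at 1 h and 1.64, 1.14 and 0.97 at 6 h. Among 26 translation factors 23 were higher and 1 lower, with Eif2s1, the α subunit of eIF2, at 0.03 and 1.44, Eif4e, the cap-binding factor, at 0 and 1.09, and Eif2b3, of its exchange factor, at 0.48 and 2.03. Of 23 genes of nuclear import and export 20 were higher and 0 lower, among them Ran (0.08 and 0.95) and Ranbp1 (0.19 and 1.53), which run the transport cycle, the importin Ipo7 (0.02 and 1.30) and the nuclear pore gene Nup155 (0.01 and 1.41).

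In cytosolic ribosomal proteins and proteasome subunits the changes were smaller. Of 45 ribosomal protein genes 31 were higher and 0 lower at 6 h than at 1 h, yet 3 passed 1.5-fold at 6 h, with list medians of 0 and 0.27. Rpl3 averaged 0.05 and 0.79, and Rpl4 -0.08 and 0.52. Of 30 proteasome subunits 17 were higher and 0 lower, with medians of -0.02 and 0.23; Psmd12 averaged -0.01 and 0.61.

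The E-box CACGTG was looked for in the same promoter windows. MYC and its partner MAX can bind these letters, but whether they or other factors bind here was not tested. It was present in 15 of the 43 ribosome biogenesis genes with a window (34.9%), in 5 of the 25 immediate early genes (20%), in 16.1% of new rises, in 3 of the 19 genes that rose and then fell (15.8%), in 12.4% of sustained rises, in 9.8% of transient rises and in 8.76% of new falls. The share was 7.87% over all tested genes and 6.65% over all windows. The windows of Pno1 (chr14:95819854-95820153, minus strand) and Ebna1bp2 (chr5:137433284-137433583, plus strand) are shown because both genes are leading new rises of the list that hold it. The E-box stands in capitals, and in these windows it lies after the annotated start, beginning at base 2 and base 31 of the transcript.
Pno1: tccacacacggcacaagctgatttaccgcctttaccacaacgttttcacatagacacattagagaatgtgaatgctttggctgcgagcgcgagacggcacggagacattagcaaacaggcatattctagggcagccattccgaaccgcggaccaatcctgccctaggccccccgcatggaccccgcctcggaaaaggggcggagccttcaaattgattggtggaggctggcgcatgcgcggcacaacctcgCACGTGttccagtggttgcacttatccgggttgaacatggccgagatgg
Ebna1bp2: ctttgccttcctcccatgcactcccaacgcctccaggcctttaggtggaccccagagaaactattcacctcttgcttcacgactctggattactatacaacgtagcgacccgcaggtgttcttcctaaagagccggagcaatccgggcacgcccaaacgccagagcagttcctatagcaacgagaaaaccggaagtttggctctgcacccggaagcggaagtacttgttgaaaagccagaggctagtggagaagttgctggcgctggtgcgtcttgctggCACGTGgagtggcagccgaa
No cyclic AMP response element as spelled above stands in either window. Its shorter part ACGTCA, also among the 14 motifs, was in 31.4% of windows of transient rises. It was also in 25.6% of those of ribosome biogenesis genes and 16.7% of those of new rises, against 9.49% over all tested genes.

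Genes for the supply of nucleotides, polyamines and amino acids were also among the new rises. Ctps1, the CTP synthase, ran from -0.49 to 1.63 at 1 h and from 2.44 to 4.44 at 6 h (mean 0.22 against 3.41, adjusted p = 1.39e-11). Cad and Umps, of pyrimidine synthesis, averaged 0 and 0.25 at 1 h and 1.5 and 1.62 at 6 h, and Atic, of purine synthesis, -0.03 and 1.14. Of 10 polyamine genes 6 were higher and 2 lower. Odc1, the rate-limiting ornithine decarboxylase, ran from 0 to 1.10 and then from 1.20 to 2.34 (mean 0.52 against 1.94, adjusted p = 2.27e-09), and Srm, the spermidine synthase, averaged 0.16 and 2.24. Oaz2, an antizyme that degrades ornithine decarboxylase, fell from -0.31 to -1.27. Asns, the asparagine synthetase that amino acid shortage induces, averaged -0.03 and 1.99, and Slc3a2, the shared chain of several amino acid exchangers, 0.10 and 1.32. Hsp90aa1, a heat shock chaperone, averaged -0.01 and 0.99. Plin2, the coat protein of lipid droplets, averaged 0.17 and 1.97, with 6 h values from 0.57 in EtOH rat 1 to 3.65 in HF rat 3.

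Genes of cell division showed no such rise by 6 h. Of 34 mitosis genes 0 rose at either time and 4 were lower at 6 h, none of them in the 19 rats without outliers. Ccnb2 and Bub1, of mitosis, averaged -0.51 and -0.31 at 6 h with all rats, Bub1 from a control level of 3.48, under the array medians. Of 38 genes of DNA replication and nucleotide synthesis 10 were higher and 8 lower, with list medians of -0.08 and -0.06. Cad, Umps, Atic and Ctps1 belong to this list. Over all genes 19.2% were higher and 17.2% lower. The counts of the replication list lay near these shares and those of the mitosis list below them. Of 21 genes of G1 cyclins and CDK inhibitors 5 were higher and 1 lower at 6 h than at 1 h. Among them, Cdc25a, the phosphatase that starts S phase, was a new rise (-0.24 and 0.70). E2f3 and Cdk4 were also higher, at -0.306 and -0.325 at 1 h and 0.359 and 0.247 at 6 h, each response below 1.5-fold. Ccnd1, cyclin D1, averaged -0.15 ± 0.14 and -0.26 ± 0.14 (difference -0.11 ± 0.20, adjusted p = 0.734), with an interval that leaves room for changes of either sign. Its 6 h values ran from -2.54 in HF rat 2 to 0.45, and without that rat the 6 h mean was -0.07 and the difference 0.08 (adjusted p = 0.617). The growth factor Hgf averaged 0.42 and 0.53, below 1.5-fold, and 0.63 at 6 h without the outlier rats, which passed as a rise (adjusted p = 9.95e-05). Its receptor Met averaged 0.02 and -0.41, and Areg, an EGF receptor ligand, -0.01 and 0, at levels under the array medians. Egf, the epidermal growth factor, fell anew (0.01 and -1.10), as did Inhba, a chain of activin (-0.45 and -1.47), and Rbl2, the pocket protein p130 of resting cells (-0.09 and -1.35).

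**Figure D4:**
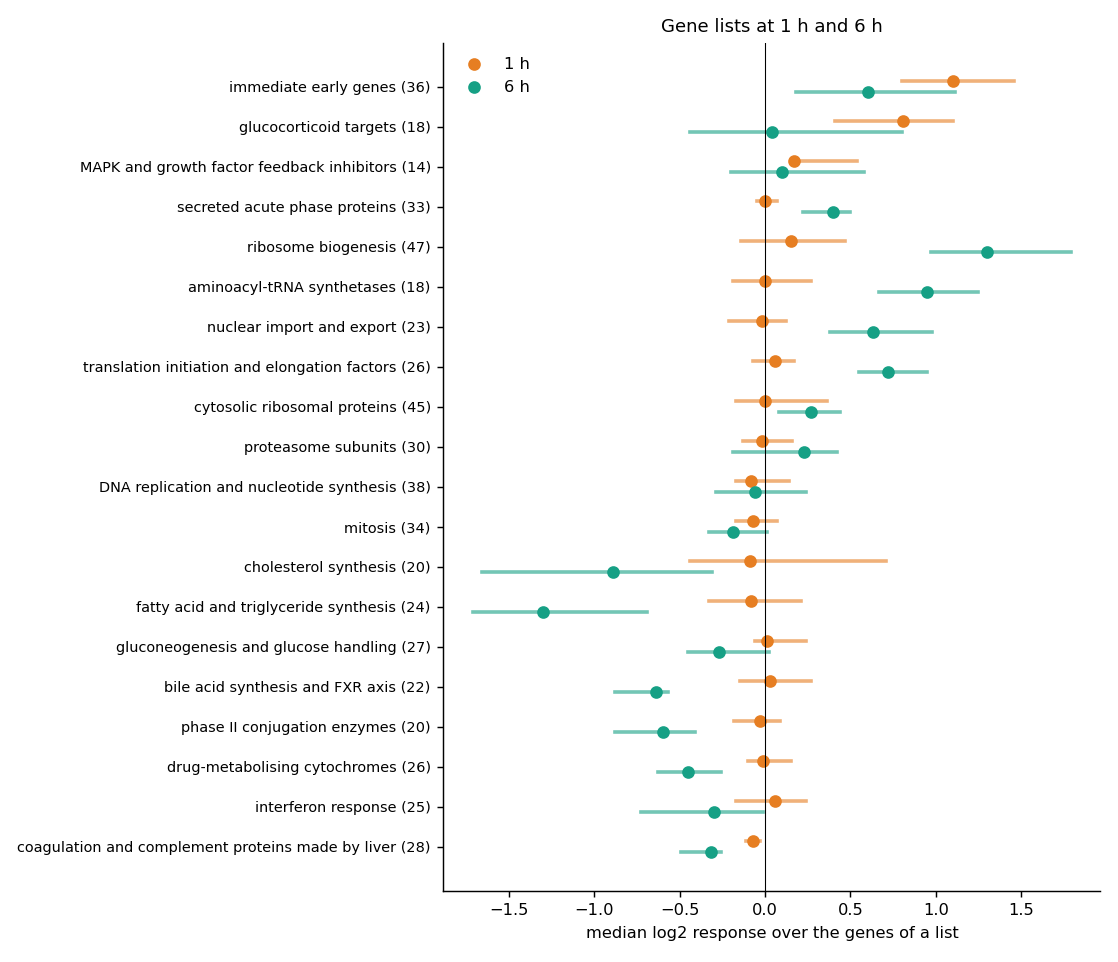
Median log2 response of 20 gene lists (number of measured genes in brackets) at 1 h and 6 h, where the dot is the median over genes of the mean response and the line runs from the lowest to the highest of 12 rats. The immediate early and glucocorticoid lists are higher at 1 h, the ribosome biogenesis list stands at 1.30 at 6 h, and the lists of lipid, bile acid and drug metabolism are below 0 at 6 h.

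Among the new falls were metabolic genes of the differentiated hepatocyte and nuclear receptors that control them. Ppara, the nuclear receptor of fatty acid oxidation, ran from -0.28 to 1.09 at 1 h and from -4.28 to -1.56 at 6 h (mean 0.35 ± 0.15 against -2.88 ± 0.15 SE, 7.35-fold lower than control at 6 h, adjusted p = 1.23e-11). All rats were below control at 6 h, HF rat 2 the least. Nr1i3, the xenobiotic receptor CAR, averaged -0.32 and -2.25, Nr1h4, the bile acid receptor FXR, 0.02 and -1.19, Mlxipl, the glucose sensor ChREBP, -0.09 and -1.36, Srebf2, the activator of cholesterol synthesis, -0.01 and -0.87, and Cebpa, a factor of hepatocyte differentiation, -0.23 and -1.35. Among 17 hepatocyte identity factors 4 were higher and 6 lower at 6 h than at 1 h, so the fall did not take in the list as a whole.

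Lipid synthesis fell broadly. Of 20 cholesterol synthesis genes 19 were lower and 0 higher at 6 h, 16 were new falls and 3 transient rises, with list medians of -0.09 at 1 h and -0.89 at 6 h. Fdft1, squalene synthase, ran from -0.47 to 0.49 and then from -2.22 to -1.18 (mean -0.12 against -1.69, adjusted p = 3.89e-12). Mvk and Sc5d, other enzymes of the path, averaged -0.07 and -0.10 at 1 h and -0.99 and -0.84 at 6 h. Of 24 genes of fatty acid and triglyceride synthesis 18 were lower and 2 higher, with medians of -0.08 and -1.30. Fads1 and Fads2, the desaturases of polyunsaturated fatty acids, averaged -0.16 and -0.13 at 1 h and -1.66 and -1.54 at 6 h, and Acacb, an acetyl-CoA carboxylase, -0.23 and -1.87. Scd, the stearoyl-CoA desaturase, did not pass at either time, with 6 h values from -2.33 to 4.03, the last in HF rat 2. Of 30 genes of PPARα and fatty acid oxidation 7 were higher and 11 lower, where 19.2% of all genes were higher and 17.2% lower. The median of this list stood at -0.07 at 6 h although Ppara fell.

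More genes of bile acid, drug and amino acid metabolism were lower than higher at 6 h. Of 22 bile acid genes 15 were lower and 0 higher at 6 h, among them Slc10a1, the basolateral bile acid importer (-0.04 and -0.87), and Abcc2, a canalicular exporter (0.16 and -1.52). Slco1a4, an organic anion transporter, averaged -0.06 and -1.34. Of 26 drug-metabolising cytochromes 21 were lower and 2 higher and of 20 conjugation enzymes 19 were lower and 0 higher. Cyp2a2 averaged -0.19 and -1.12, Gstt2 -0.20 and -1.58 and Sult1c2 -0.35 and -2.19. Cyp2e1, the ethanol-inducible cytochrome, averaged 0 and -0.26, a difference that passed the test below 1.5-fold. Of 35 genes of the urea cycle and amino acid metabolism 19 were lower and 4 higher, with 5 rises and 12 falls at 6 h and list medians of 0 and -0.20. Kmo, a monooxygenase of tryptophan breakdown, ran from -0.32 to 0.02 and then from -2.01 to -1.29 (mean -0.16 against -1.61, adjusted p = 8.17e-15), and Kynu, of the same path, averaged -0.29 and -2.45. Cth, cystathionine γ-lyase, averaged -0.28 and -2.65. Of 27 genes of gluconeogenesis and glucose handling 17 were lower and 4 higher, with Pdk2, a kinase that limits pyruvate oxidation, at 0.01 and -1.70 and Khk, ketohexokinase, at -0.17 and -1.17. Pck1, the gluconeogenic PEP carboxykinase, averaged 0.46 and -0.29, each below 1.5-fold, with a difference of -0.75 (adjusted p = 8.26e-06). The largest new falls further held Coq8a, of coenzyme Q synthesis (-0.25 and -3.40), Hykk, hydroxylysine kinase (-0.52 and -3.50), Nat8f2 (-0.22 and -3.24), Glyat, glycine N-acyltransferase (-0.12 and -2.92), Aox3, an aldehyde oxidase (-0.19 and -2.98), Dhrs3, a retinal reductase (-0.32 and -3.02), Avpr1a, the vasopressin receptor of hepatocytes (-0.24 and -2.69), Rhobtb1 (0.49 and -2.01) and Slc46a3 (-0.35 and -2.76).

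More genes of coagulation, complement and the interferon response were lower than higher at 6 h. Of 28 coagulation and complement genes 20 were lower and 1 higher, with medians of -0.07 and -0.32, as for F11 (0.14 and -0.75) and F13b (-0.17 and -0.87). Mbl2, mannose-binding lectin, averaged -0.21 and -2.07, Cxcl12, a homing chemokine and 1 of the 2 new falls of the chemokine list above, -0.46 and -2.11, and Igfals, the carrier subunit of circulating IGF, -0.23 and -1.75. Of 25 interferon response genes 14 were lower and 2 higher, with Stat2 at -0.06 and -0.77 and Ifit2 at 0.17 and -0.74.

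Clock genes differed between the times, in part in opposite directions. Of 18 clock genes 3 were higher and 10 lower at 6 h, where 19.2% of all genes were higher and 17.2% lower. Dbp, an output gene of the clock, ran from -0.85 to 0.13 and then from -4.76 to -0.02 (mean -0.34 against -2.45, adjusted p = 1.16e-06), and Nr1d2, the repressor REV-ERBβ, averaged 0.15 and -1.03. Bmal1 and Clock, of the activating arm, averaged -0.30 and -0.22 at 1 h and 0.80 and 0.62 at 6 h. The diets lay apart in these means. The difference was 0.01 in EtOH, 1.23 in HF and 2.06 in CHO rats for Bmal1, 0.16, 1.02 and 1.32 for Clock, and -0.58, -2.86 and -2.92 for Dbp. The test of EtOH against the mean of HF and CHO was not passed with all rats (limma, adjusted p = 0.303, 0.234 and 0.193). Without the outlier rats it was passed by all 3 genes (adjusted p = 0.00416, 0.016 and 0.00246), and without HF rat 2 of the 6 h cohort by Clock (adjusted p = 0.0493) and not by Bmal1 and Dbp (0.156 and 0.0602). With no sham-operated rats the hours that passed between both samples of a rat cannot be told apart from the surgery.

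The summed level of 19 macrophage markers was above control in 12 of 12 rats at each time, with a median of log2 0.26 at 1 h (0.11 to 0.54) and at 6 h (0.05 to 0.75). Such sums are led by the brightest markers. Of the 19 macrophage markers 3 were higher and 4 lower at 6 h than at 1 h, and 0 rose at 1 h and 2 at 6 h. Their list median over rats ran from 0.06 to 0.50 at 1 h and from -0.22 to 0.55 at 6 h. Of 14 neutrophil markers 5 were higher and 0 lower at 6 h, with a summed level of 0.16 at 1 h (-0.02 to 0.31) and 0.31 at 6 h (0.05 to 0.52). That of 7 erythroid markers moved by -0.74 to 1.98 at 1 h and by -2.33 to 0.75 at 6 h. Of 16 lymphocyte markers 2 were lower at 6 h, of 13 endothelial markers 3 were higher and 2 lower, of 19 stellate cell and matrix markers 4 were higher and 6 lower, and of 9 cholangiocyte markers 0 changed (adjusted p in limma), where 19.2% of all genes were higher and 17.2% lower. The shares of macrophage and endothelial markers, and of the higher stellate cell markers, lay near these, so they are no result about those cells. The 6 lower stellate cell and matrix markers were a larger share than over all genes. The summed level of 12 pericentral hepatocyte markers was below control at 6 h in 12 of 12 rats (median -0.30), and that of 11 periportal ones above control at 1 h in 12 of 12 (median 0.14) and at 6 h in 3 of 12. By gene, 9 pericentral markers were lower and 2 higher at 6 h than at 1 h, and 6 periportal ones lower and 1 higher. List medians went from 0.01 to -0.26 and from 0.07 to -0.22, so the zonal lists moved alike. The part of these marker levels in the results above was not tested.

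For few genes was the difference between 6 h and 1 h called as dependent on diet. The difference was called for 3246 genes (22.4%) in EtOH, 2700 (18.6%) in HF and 3762 (25.9%) in CHO rats. Each is a contrast of the main fit with 4 rats a time and the variance pooled over all 24 rats. The difference itself differed between EtOH and the mean of HF and CHO for 15 genes (0.103%) in limma. Of these, 4 had a higher and 11 a lower value in EtOH. Between HF and CHO it differed for 0 genes (0%), and 1 was called when HF rat 4 of the 6 h cohort was left out. An unadjusted p under 0.05 was reached by 607 higher and 550 lower genes for EtOH. For HF against CHO these were 625 and 582 genes. Same-numbered rats were not paired in this fit, and a replicate block within each cohort gave 36 calls for EtOH. The 15 calls rest on few rats. Their number was 132 without HF rat 2 of the 6 h cohort and 148 without the 5 outlier rats, with all 15 genes included in both cases, while leaving out other single rats gave 1 to 24.

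Stac3, known as an adaptor protein of muscle, had the lowest adjusted p. Its 1 h responses averaged -0.18 ± 0.38 in EtOH, 0.08 ± 0.19 in HF and -0.44 ± 0.17 in CHO rats, and its 6 h responses -0.38 ± 0.75, -3.19 ± 0.96 and -3.84 ± 0.35 (SD, n = 4; EtOH minus the mean of HF and CHO 3.14 ± 0.42 SE, adjusted p = 0.00184 in limma). It remained called without any single rat (adjusted p up to 0.012), and 0 genes were called when either scan day of the 1 h cohort was left out. The 8 control livers of EtOH rats held 4.57 ± 1.02, under the array medians, against 7.79 ± 0.94 in HF and 8.66 ± 0.50 in CHO rats, so the fall seen in HF and CHO rats started from a higher level. Gpam, the first enzyme of triglyceride synthesis, fell at 6 h by 3.88 ± 0.28 on the log2 scale in EtOH, by 1.7 ± 1.22 in HF and by 1.43 ± 0.77 in CHO rats (adjusted p = 0.0422), from control levels of 9.63, 8.10 and 8.20. Alas1, the rate-limiting enzyme of haem synthesis, stood at -0.11 ± 0.21, 0.83 ± 0.45 and 0.55 ± 0.53 at 1 h and at -0.83 ± 0.36, -1.55 ± 0.35 and -1.70 ± 0.46 at 6 h in the same order (adjusted p = 0.0478). Ppargc1a returned less far in EtOH rats, to 0.75 ± 0.52 at 6 h against -0.16 ± 0.49 in HF and -0.64 ± 0.33 in CHO rats, from 2.03, 2.40 and 2.20 at 1 h (adjusted p = 0.0478). Orm1 rose less in EtOH rats at 6 h, to 1.67 ± 0.13 against 2.40 ± 0.31 and 2.91 ± 0.18 (adjusted p = 0.033), from control levels of 10.05 in EtOH, 9.01 in HF and 8.77 in CHO livers. Pctp, a phosphatidylcholine transfer protein, and Fzd4, a Wnt receptor, fell further in EtOH rats at 6 h, to -2.06 against -1.0 and -0.93, and to -1.75 against -0.08 and -0.68. Itga6, an integrin chain, stood at -0.44 in EtOH and at 0.87 and 0.91 in HF and CHO rats. Except for Stac3, these calls were lost when some single rat was left out, with adjusted p values up to 0.15. The control level is part of each response, and its share in these differences was not tested.

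**Figure D5:**
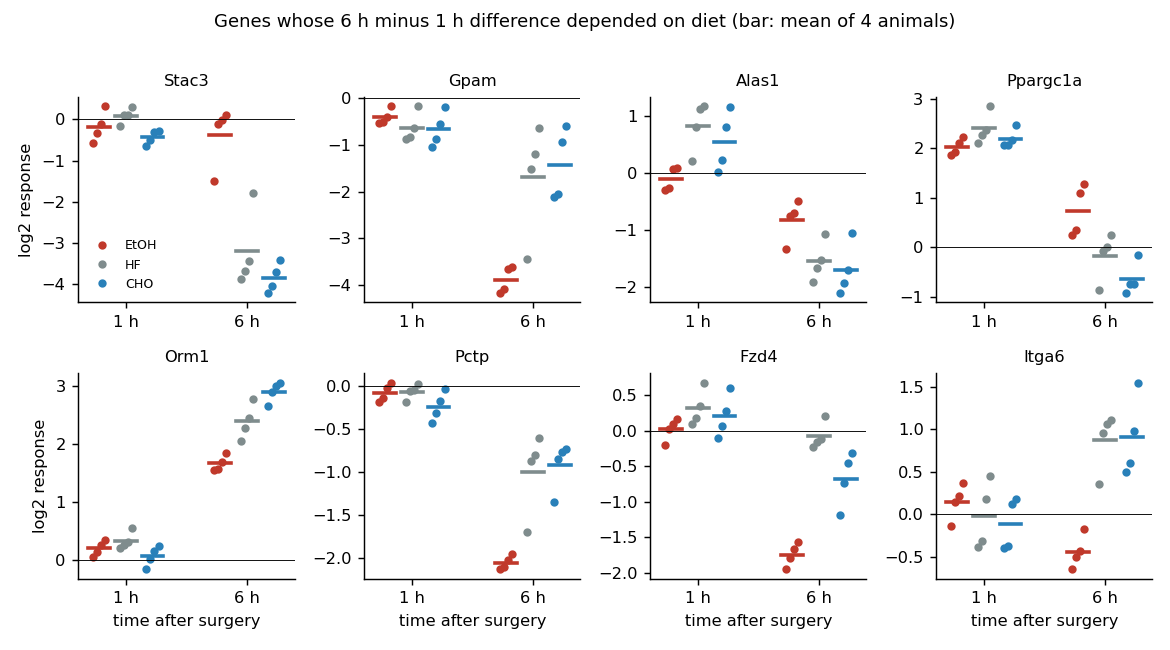
Log2 response of each rat (vertical axis) at 1 h and 6 h for 8 of the 15 genes whose difference between the times was called as dependent on diet, with a bar at the mean of each 4 rats. At 6 h the EtOH rats lie apart from the HF and CHO rats in Stac3 (-0.38 against -3.19 and -3.84) and in Itga6 (-0.44 against 0.87 and 0.91).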

How the data were processed

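Total RNA of freeze-clamped liver was hybridised to Affymetrix Rat Gene 1.0 ST arrays. Per the submitters' processing notes, the authors summarised probes with RMA in Affymetrix Expression Console, and the deposited values are log2 levels, here from the table that the authors corrected for batches. In that table the control means of both cohorts are equal for each of the 15310 probe sets with 1 gene symbol (within 3.3e-05), so levels are not comparable across cohorts beyond that correction, while responses match those of the uncorrected value table within 0.00014. Arrays give no counts, and 4 rats a diet and time limit the precision.

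Of 29214 probe sets, 15310 have 1 gene symbol in the platform annotation, 323 several and 13581 are not listed; the brightest probe set stood for a gene, which gave 14506 genes with no filter on low values. Remnant minus control was taken within each rat and fitted with limma 3.58.1 in R 4.3.3, with a mean for each diet and cohort (18 residual degrees of freedom). Adjusted p values are Benjamini-Hochberg values over all genes, and errors of fitted means are standard errors. The code was tested on simulated data.

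Named genes are, per class, those with the largest changes among genes of 1 direction in all 12 rats, 4 genes of each list with the smallest p, and a fixed set of well-known genes; Fzd4, Pctp, Tmem97 and Atp2b2 were named because they complete the 15 genes called as dependent on diet. The comparison, its classes, the lists and the genes were chosen with earlier results of these data known. Gene lists were described by counts and medians. Replicate numbers run from 1 to 4 in each diet and cohort. Same-numbered rats of both cohorts did not deviate together (12 pairs, r of -0.113 to 0.243, 4 over 0.1). Same-numbered rats of different diets in a cohort carry consecutive animal numbers, and their deviations correlated at r of -0.102 to 0.338 (24 pairs, 8 over 0.1). Of these pairs 7 of 12 exceeded 0.1 at 6 h (median 0.126, highest 0.338) and 1 of 12 at 1 h (median -0.0267, highest 0.126). The numbers were used as names in the main fit, although same-numbered rats of the 6 h cohort may belong together. With a replicate block within each cohort, 36 genes and not 15 were called as dependent on diet. Biological replicates are separate rats, per the labels. Promoter sequences are those of RefSeq on GRCr8. The 24 h cohort, and the 12 h time that the series text mentions, were not analysed here.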

Additional observations from a re-analysis of the deposited data

Results flagged for a closer look

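The difference between 6 h and 1 h itself differed between EtOH rats and the mean of HF and CHO rats for 15 genes (limma, interaction contrast, adjusted p below 0.05). The value was higher in EtOH for Stac3 by 3.14, Alas1 by 1.59, Ppargc1a by 1.42 and Angptl2, an angiopoietin-like secreted protein, by 1.20 on the log2 scale. It was lower for Gpam (-2.56), Dapk1, a cell death kinase (-1.65), Itga6 (-1.54), Gpr39, a zinc receptor (-1.26), Tjp3, a tight junction protein (-1.24), Abhd2, a lipid hydrolase (-1.22), Tmem97, the sigma-2 receptor (-1.21), Pctp (-1.17), Fzd4 (-1.12), Atp2b2, a calcium pump (-1.02), and Orm1 (-0.99). The control livers differed between diets in many of these genes, as for Dapk1 at 6.85 ± 0.25 in EtOH against 5.55 ± 0.31 in HF and 5.67 ± 0.34 in CHO rats (SD, 8 livers each), and Abhd2 was an exception, at 10.06, 9.95 and 9.98. The part of the control level in the differences was not tested.

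Among 96 groups of 4 rats examined for a sample far from the other 3, 2 were found, where chance alone gives about 1 in 20 groups. The Stac3 response of EtOH rat 1 at 6 h was -1.50, apart from the other 3 rats of its group. The Atp2b2 response of EtOH rat 4 at 6 h was -1.31, in a group whose mean was -1.38 ± 0.05 (SD, n = 4).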

How the results depend on the processing

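Response strength kept its direction and its side of the threshold under the 11 alternatives run and without each of the 24 rats, and no named gene reversed among called values. Counts with no fold minimum were 810 rises and 1256 falls at 1 h, 3221 and 3372 at 6 h, 143 and 206 transient, 480 and 704 sustained, 2059 and 1784 new genes, 93 that rose and then fell and 190 that fell and then rose. With a minimum of 2-fold they were 96 and 5, 464 and 480, 43 and 0, 38 and 4, 417 and 463, 7 and 0. HF rats alone gave 1614 genes with a difference (759 higher, 855 lower), and CHO rats alone 1656 lower genes. The 15 genes dependent on diet became 87 with animal weights, 145 in the authors' table without outliers and 148 without outlier rats. They became 9 over every probe set, 9 with scan day as a random block and 0 with arrays as independent samples (no replicate block). They became 30 with the replicate block and 36 with a replicate block within each cohort, added after seeing the data. Both blocks rest on numbers that were not shown to pair the rats. Within the cohorts, however, 7 of 12 same-numbered pairs correlated over 0.1 at 6 h, and 1 of 12 at 1 h. The block within each cohort left all other counts within 1.5 times. The 15 genes became 96, 1, 0 and 0 without scan days 1, 2, 7 and 8. Leaving out single rats gave 1 to 132 for EtOH and 0 to 1 for HF against CHO. Without scan day 2 there were 10 transient falls, and without day 7 there were 20 sustained falls, 5 genes that rose and then fell and 1 that did the reverse. That reverse class, with 0 genes here, held 3 without outlier rats, 2 in the authors' table, 1 with animal weights, 1 after renewed quantile normalization and 1 without day 1. List medians of the difference moved for bile acid genes to -0.763 in the authors' table, -0.756 without outlier rats and -0.828 without day 8. Among genes above the median level they were -0.412 for the IGF axis, -0.221 for mitosis and -0.001 for oxidative stress, which stood at -0.039 without day 2. They were -0.203 for hepatocyte markers after renewed quantile normalization, -0.039 for endoplasmic reticulum stress without day 1, -0.330 for hepatocyte identity factors and -0.470 for pericentral markers without day 7, and -0.300 for coagulation and complement without day 8. Without single rats the medians ran from -0.115 to -0.008 for G1 cyclins and CDK inhibitors and from -0.075 to 0.149 for hepatocyte identity factors. Classes ran from 1053 to 1157 for new falls, 955 to 1030 for new rises, 17 to 23 for genes that rose and then fell, 0 to 2 for the reverse, 29 to 44 for sustained falls, 108 to 127 for sustained rises, 12 to 21 for transient falls and 64 to 81 for transient rises. The cause of these shifts was not tested; sets of fewer rats have fewer degrees of freedom.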
